A study of Mus musculus with 22 samples.

Results

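The 9 genes described here encode core parts of the hedgehog pathway, measured by RNA sequencing of mouse lumbar spinal cord. They are the ligand gene Shh, the receptor genes Ptch1, Smo, Hhip and Gas1, the transcription factor genes Gli1, Gli2 and Gli3, and Sufu, which encodes a protein that holds Gli factors back. All 9 were among the 17306 genes of the deposited table and among the 16765 genes with enough reads to be tested. The pathway was selected on a measured value, the late difference of Gli2 between SAFit2 and Vehicle mice. Values of the 9 genes in the late comparison are therefore given as a description with no test. Gli2 is likewise given with no test in every comparison between groups that includes Late SAFit2 or Late Vehicle mice.

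The study asked how SAFit2, a selective inhibitor of the stress protein FKBP51, affects the spinal cord when it is given early or late in a lasting joint pain state. All 22 mice were wildtype C57BL6J animals aged 12 to 14 weeks at collection, and all received 1 mg of monosodium iodoacetate (MIA) in a knee joint, a model of osteoarthritis pain. The gel, a vesicular phospholipid gel that releases its load slowly, was injected under the skin, and tissue labelled L4 to L6 spinal cord was collected on day 30. The study's text speaks of dorsal horn quadrants of the injected side, the labels name no quadrant, and which part of the cord each library holds was not settled. No mouse without MIA is among the 22 of this series, so each value describes the cord of a mouse with joint pain.

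The Early SAFit2 group had 5 mice, given gel with 100 mg/kg SAFit2 on days -3 and 4 relative to MIA by the study's methods (the labels' protocol reads 3 and 4). The Early Vehicle group had 6 mice, given gel without SAFit2 on those days. The Late SAFit2 group had 5 mice, given the same SAFit2 gel on days 20 and 27, and the Late Vehicle group had 6 mice, given gel alone on those later days. The labels give Early and Late as the batch, so timing of the gel and batch cannot be told apart between early and late mice. By the study's account, SAFit2 was still being released at collection in Late SAFit2 mice, and its release had ended in Early SAFit2 mice. The sample titles of the Early SAFit2 mice read SAFit1 where their treatment label reads SAFit2.

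Hedgehog ligands bind Ptch1, which otherwise keeps Smo silent, and active Smo moves to the primary cilium, where Gli proteins are processed. Gli2 acts mainly as the activator that starts the response, Gli3 mainly as a repressor, and Gli1, Ptch1 and Hhip are themselves switched on by the pathway. In the embryonic spinal cord Shh from the notochord and floor plate patterns the ventral neurons, and in the adult central nervous system the pathway is best known in astrocytes, ependymal cells and neural progenitors.

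Each library held between 11352989 and 24433349 reads on genes. Values are deposited as log2 CPM, the log2 of reads on a gene scaled to the size of the library. The marker genes of spinal cord were present in every library, with the 5 neuronal markers summing to between 3190 and 4760 CPM in every group and the Hox genes of the lumbar cord to between 224 and 344 CPM. At this depth some hedgehog genes were thinly covered: Gli2 had between 15 and 136 reads in a mouse, Gli1 between 21 and 151, and Sufu between 13 and 105. Ptch1, Smo and Hhip had medians of 489, 464 and 431 reads. Sufu at 13 reads in Late SAFit2 mouse 4 was the lowest read count of any of the 9 genes.

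Libraries of the late groups stood apart in ways that touch these genes. For each library a slope was computed of each gene's value, less that gene's mean over all mice, on the GC content of the gene's longest transcript, in log2 units per 10 points of GC. The mean slope was -0.295 ± 0.164 (SD, n = 5) in Late SAFit2 mice, with all 5 below 0, and 0.167 ± 0.329 (SD, n = 6) in Late Vehicle mice, with 4 of 6 above 0. On average over the whole table, GC-rich genes therefore had lower values in Late SAFit2 than in Late Vehicle libraries. Early SAFit2 and Early Vehicle libraries had mean slopes of 0.0711 and 0.0202. Mitochondrial RNA made up 13.8% ± 0.86 (SD, n = 5) of reads in Late SAFit2 and 9.23% ± 2.55 (SD, n = 6) in Late Vehicle mice. Bc1, a short noncoding RNA of neurons, made up 7.73% ± 5.3 (SD, n = 5) of reads in Late SAFit2 mice, with up to 16.5%, and 2.92% ± 2.39 (SD, n = 6) in Late Vehicle mice, with up to 7.55%. The ranges of the late groups overlapped for both, and their part in the late values was not tested. Single early libraries stood apart too. Early Vehicle mouse 5 had 18.3% mitochondrial RNA and Early Vehicle mouse 4 had 11.9% Bc1, against group medians of 8.8% and 1.67%. Smo, Gli1, Gli2, Gas1 and Sufu have GC contents from 55.8% to 59.0%, above the median of 49.7% over all genes, whereas Ptch1, Gli3 and Hhip have 47.8%, 48.4% and 41.2%. Each late value of the 9 genes is therefore also given after a trend with GC content and transcript length was removed from every library.

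Levels are compared between genes as CPM per kilobase of exon, over all 22 mice. Smo was the highest of the 9 genes at 4.68 ± 1.04 CPM per kilobase (SD, n = 22). Hhip at 2.85 ± 0.692, Gas1 at 2.85 ± 0.681, Shh at 2.34 ± 0.799 and Ptch1 at 2.05 ± 0.908 CPM per kilobase formed a middle range. The lowest were Gli1 at 0.785 ± 0.346, Gli3 at 0.698 ± 0.192, Gli2 at 0.581 ± 0.197 and Sufu at 0.430 ± 0.180 CPM per kilobase. By group, Gli2 was the highest of these in Late Vehicle mice at 0.794, above Gli3 at 0.736. In Late SAFit2 mice Gli2 was the lowest at 0.311, below Sufu at 0.352. Receptor, co-receptor and ligand genes thus lay above the 3 Gli genes and Sufu. Smo exceeded Hhip in 21 of 22 mice and Ptch1 exceeded Gli1 in 20 of 22 mice. The other neighbours in this order lay within 1 SD of each other, and Hhip exceeded Gas1 in only 10 of 22 mice. The genes lie on chromosome 5 (Shh), chromosome 13 (Ptch1, Gli3 and Gas1), chromosome 6 (Smo), chromosome 10 (Gli1), chromosome 1 (Gli2), chromosome 19 (Sufu) and chromosome 8 (Hhip). The sources do not say whether reads were counted by strand, and Shh, Gli1, Gli3, Hhip and Gas1 have annotated genes on the opposite strand that overlap their exons, while Ptch1, Smo, Gli2 and Sufu have none.

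**Figure D1:**
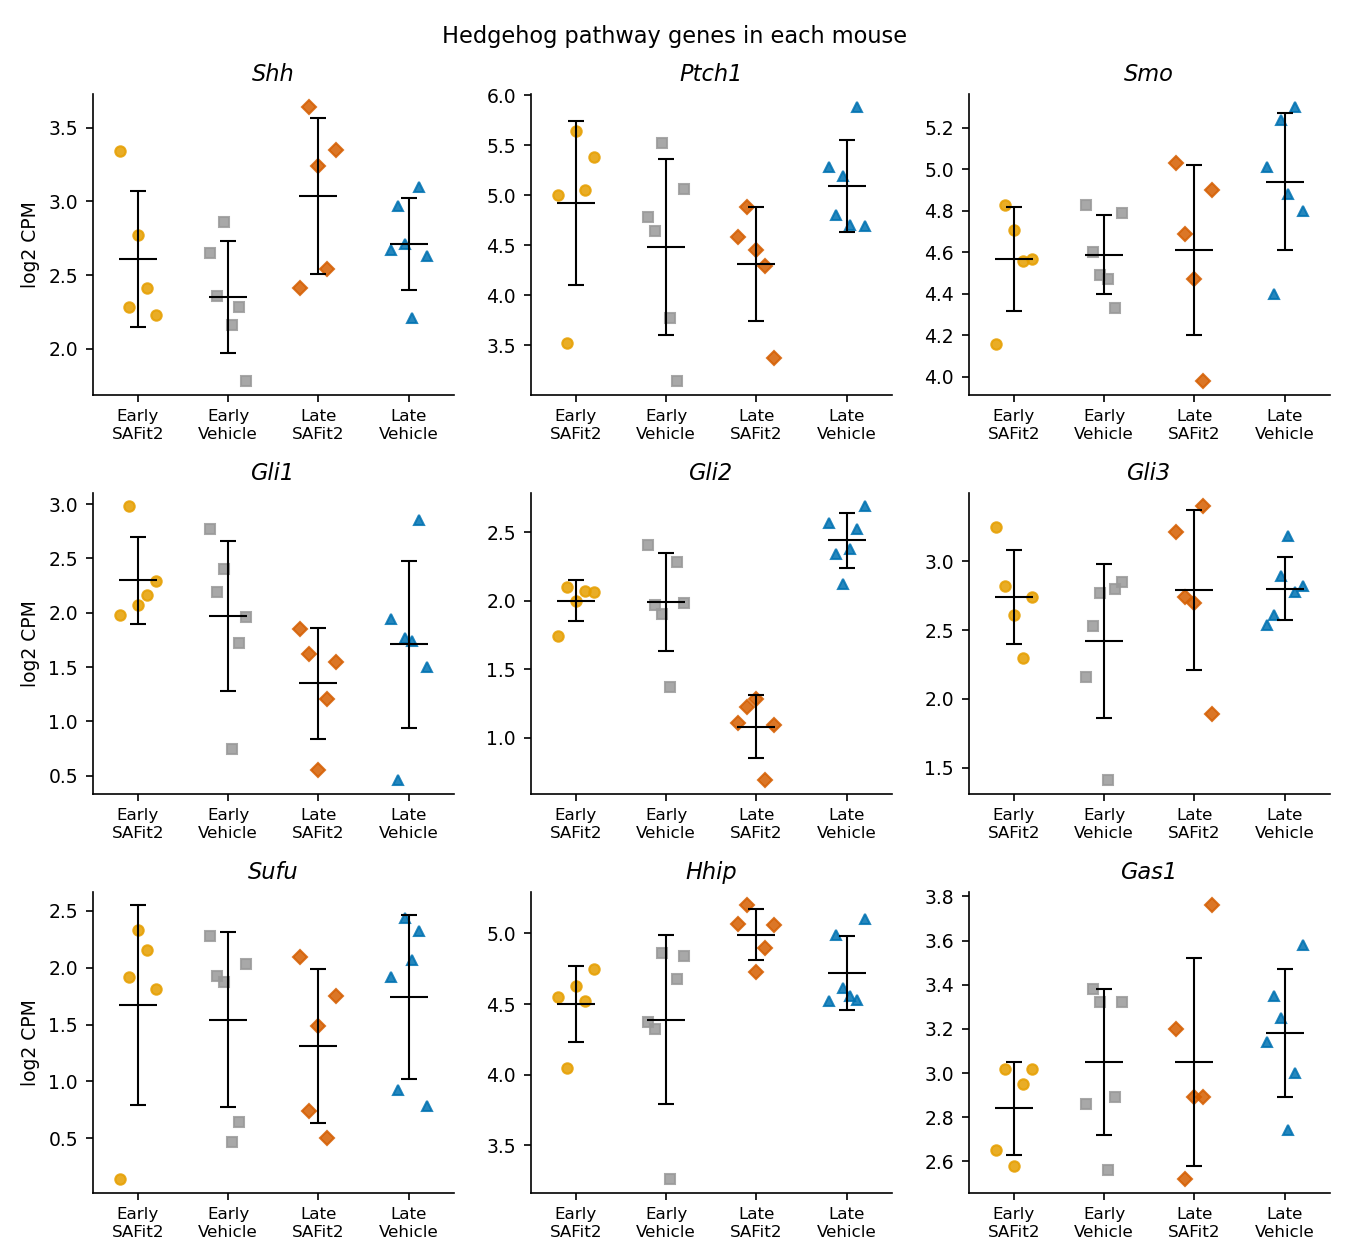
The log2 CPM of each of the 9 hedgehog genes in each of the 22 mice, by group, with the group mean and SD as black bars. Gli2 in the 5 Late SAFit2 mice lay between 0.69 and 1.28, below all 6 Late Vehicle mice at 2.12 to 2.69, and for the other 8 genes the late groups overlapped.

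Gli2 (Entrez 14633, GRCm38 chromosome 1 from 118834132 to 119053619, minus strand) was lower in Late SAFit2 mice than in every other group, a description of the value that led to the choice. In the Late SAFit2 mice its log2 CPM was 1.11, 1.22, 1.28, 0.69 and 1.09, from 37, 30, 43, 15 and 18 reads. In Late Vehicle mice the lowest, median and highest log2 CPM were 2.12, 2.45 and 2.69, from 73 to 136 reads. Every Late SAFit2 mouse lay below every Late Vehicle mouse, which was so for 287 of 16765 genes (1.71%) in one direction or the other. Early SAFit2 mice had 1.74, 2.10, 2.00, 2.07 and 2.06. Early Vehicle mice had a lowest, median and highest value of 1.37, 1.98 and 2.41. The early groups thus overlapped and sat between the late groups, with means of 2.00 ± 0.15 (SD, n = 5) and 1.99 ± 0.36 (SD, n = 6). Late SAFit2 mice averaged 1.08 ± 0.23 (SD, n = 5) and Late Vehicle mice 2.44 ± 0.20 (SD, n = 6), a log2 difference of -1.36 (SE 0.20), or 2.56-fold lower. Gli2 expression per length was 0.311 CPM per kilobase in Late SAFit2 and 0.794 in Late Vehicle mice.

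The late difference of Gli2 was smaller after the trend with GC content and transcript length was removed, at -0.94 (SE 0.23), and the late groups still did not overlap, at 1.07 to 1.53 in Late SAFit2 and 1.69 to 3.04 in Late Vehicle mice. No call is given for Gli2, and after that correction 0 of 16208 genes were called in the late comparison. Without any single mouse the Gli2 difference on the deposited values was between -1.42 and -1.26. In bulk tissue, fewer cells that express Gli2 and less Gli2 RNA per cell cannot be told apart.

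The bases before the Gli2 start are shown because Gli factors bind a known core sequence, whose letters ACCACCC were searched on both strands. RefSeq promoters of GRCm38.p6 were found for 7 of the 9 genes, all but Shh and Gli1. Only that of Gli2 held the core in the 250 bases before the start, as its reverse complement GGGTGGT, in capitals, 205 to 199 bases before the start. The window is chr1:119053620-119053869, minus strand, with a GC content of 67.2%.
Gli2: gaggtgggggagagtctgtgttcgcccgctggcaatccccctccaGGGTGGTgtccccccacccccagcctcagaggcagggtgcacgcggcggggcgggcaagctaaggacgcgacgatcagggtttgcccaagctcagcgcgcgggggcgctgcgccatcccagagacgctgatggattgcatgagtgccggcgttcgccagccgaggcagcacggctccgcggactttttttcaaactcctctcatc
The core occurred in 1289 of 32851 promoters of this length (3.92%), among them Prkar1a and Zic5 of the 50 matched genes on the lists of other pathway genes. The longer GACCACCCA, which contains the core, occurred in 74 promoters (0.225%) and in none of these genes. A match is a description of letters and not of a bound site.

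Among the receptor genes in the late comparison, Ptch1, the receptor and a target of the pathway, had the largest late value after Gli2. Ptch1 (Entrez 19206) lies on chromosome 13 from 63508328 to 63573598, minus strand. Its log2 CPM in Late SAFit2 mice was 3.37 to 4.88 with a mean of 4.31 ± 0.57 (SD, n = 5), and in Late Vehicle mice 4.69 to 5.88 with a mean of 5.09 ± 0.46 (SD, n = 6). All 5 Late SAFit2 mice lay below the Late Vehicle mean but the groups overlapped, and the log2 difference was -0.78 (SE 0.36). It was -0.84 after GC and length correction, -0.51 without Late SAFit2 mice 3 and 5 and -0.34 with the GC slope of each library in the fit, so its size depended on the processing. Smo, the membrane protein that passes the signal on, had a late log2 difference of -0.32 (SE 0.17), which turned to 0.10 after the correction. Gas1, a co-receptor, had -0.12 (SE 0.21) and 0.31 after it, and Hhip, a decoy that binds the ligand, 0.28 (SE 0.21) and -0.08. The signs of Smo, Gas1 and Hhip therefore turned with the GC and length trend, and that of Ptch1 did not. The ligand gene Shh had a late log2 difference of 0.32 (SE 0.25) and 0.45 after the correction.

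Of the other genes of the Gli step, Gli1, an activator and a target of the pathway, had a late log2 difference of -0.36 (SE 0.35), which turned to 0.13 after the correction. Gli3, mainly a repressor, had -0.02 (SE 0.26), 0.04 with median centring, 0.06 with quantile normalization and -0.05 after the correction. Sufu had -0.43 (SE 0.42), -0.10 after the correction and 0.80 with the GC slope of each library in the fit, and Gli1 had 0.34 in that fit. The signs of Gli1, Gli3 and Sufu thus changed with the processing. Counted without a test, 7 of the 9 genes were below 0 and 2 above 0 in the late comparison, with a median log2 difference of -0.32, beside -0.05 over all genes. Over all genes tested 12.1% were called, at an adjusted p under 0.05 with a fold change of at least 1.2, and 0 were after the correction. No call is given for the 9 genes, and nothing is read from their counts, since Gli2 was chosen by its late difference.

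**Figure D2:**
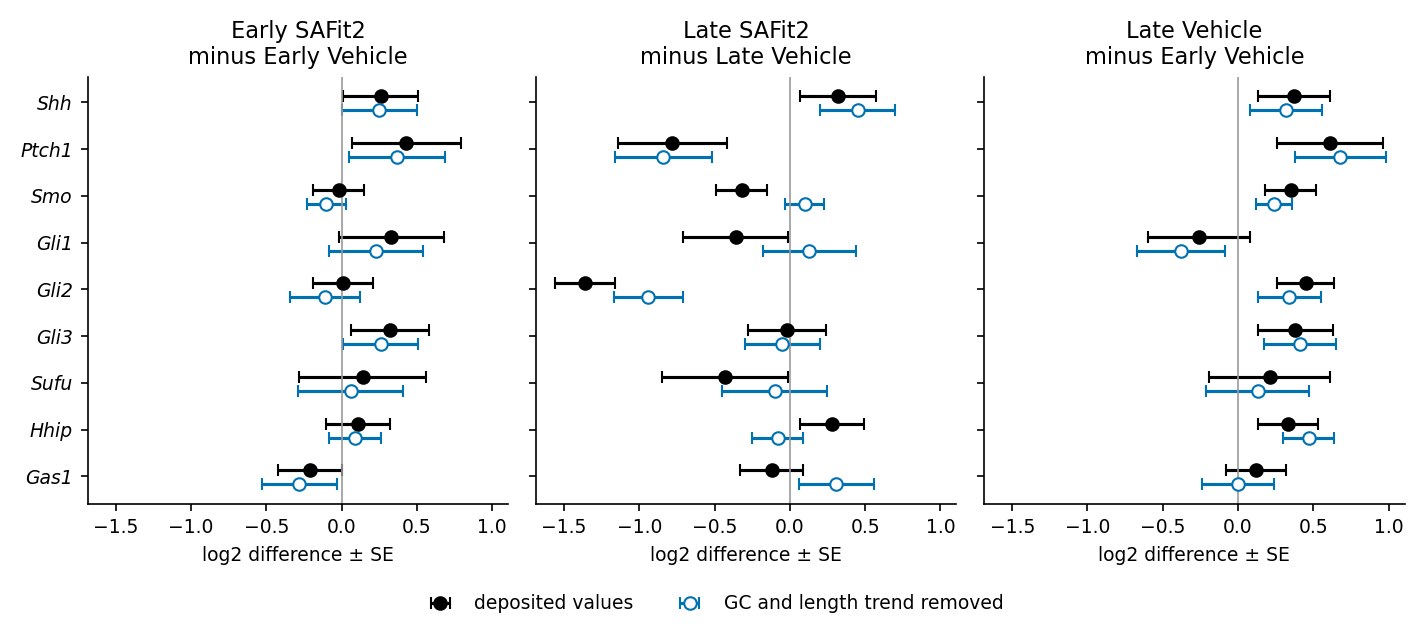
Log2 differences of the 9 hedgehog genes with their standard errors in the early comparison, the late comparison and between the Vehicle groups, on the deposited values (black) and with the trend of GC content and transcript length removed from each library (open). In the late comparison Gli2 had -1.36 and -0.94, and Smo moved from -0.32 to 0.10.

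The early comparison asks whether SAFit2 given around the onset of the joint pain altered these genes at day 30, and it did not lead to their choice. None of the 9 was called in Early SAFit2 against Early Vehicle mice with limma, beside 0 of 16765 genes (0%), and all 9 had an adjusted p of 1. At an unadjusted p under 0.05 there were 416 genes in the table and none of the 9. Gli2 had a log2 difference of 0.01 (SE 0.20), which turned to -0.11 after GC and length correction, with 4 of 5 Early SAFit2 mice above the Early Vehicle mean. Ptch1 had the largest early value at 0.43 (SE 0.36), with 4 of 5 mice above that mean, and it moved between 0.16 and 0.78 without single mice and was 0.16 with library quality weights. Gli1 at 0.33 (SE 0.35), Gli3 at 0.32 (SE 0.26) and Shh at 0.26 (SE 0.25) were also above 0. Gas1, a co-receptor, had -0.21 (SE 0.21) with all 5 mice below the Early Vehicle mean. None of these differences was large against its standard error by the test. Signs were positive for 7 and negative for 2 of the 9 genes, with a median of 0.14 beside 0.01 over all genes, and with library quality weights Gli3 turned to -0.07 and Hhip from 0.11 to -0.03. No hedgehog gene had early groups without overlap, beside 0.352% of all genes.

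Late Vehicle against Early Vehicle mice compares animals that received no SAFit2, and it shares the Late Vehicle mice with the late comparison and the Early Vehicle mice with the early one. Gli2 was 0.45 (SE 0.19) higher in Late Vehicle than in Early Vehicle mice on the log2 scale, with 6 of 6 mice above the Early Vehicle mean. This value has no test, since the Late Vehicle mice are an arm of the late difference that led to the choice. Of the other 8 hedgehog genes 0 were called with limma, beside 9.11% of all genes tested, and 1, Smo, had an unadjusted p under 0.05, beside 24.3% of all genes. Smo had 0.35 (SE 0.17, adjusted p = 0.193) with 5 of 6 mice above the mean, and was called with library quality weights (adjusted p = 0.00731), which give less weight to libraries that vary more and under which 30.2% of all genes were called. Ptch1 had 0.61 (SE 0.35, adjusted p = 0.294) with 6 of 6 mice above the mean. Hhip had 0.33 (SE 0.20, adjusted p = 0.324) with 6 of 6, and was called after GC and length correction with a replicate block (adjusted p = 0.0407) but not with the correction alone (adjusted p = 0.0505). It fell to 0.02 with library quality weights and to 0.10 without Early Vehicle mouse 4, the lowest Hhip value of its group. The calls of Smo and Hhip thus depended on the alternative. In this comparison 8 of the 9 genes were above 0 and Gli1, at -0.26, was below, with a median of 0.35 beside 0.01 over all genes. Gas1 turned from 0.12 to -0.19 with library quality weights, and Sufu from 0.21 to -0.18 with the GC slope of each library in the fit. With library sizes counted without Bc1 and mitochondrial RNA, the median over all genes in this comparison moved to -0.10.

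The difference between the early and the late effect of SAFit2 includes the late values and is given for the 9 genes with no test. Timing of the gel and presence of the drug at collection cannot be told apart in it. The difference was 1.36 (SE 0.29) for Gli2 and 1.21 (SE 0.52) for Ptch1, the effect being higher in early mice. After GC and length correction it was 0.83 (SE 0.32) for Gli2 and 1.21 (SE 0.45) for Ptch1. Over the 9 genes the median was 0.34, beside 0.05 over all genes, with 6 genes above 0 and 3 below.

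Within groups, each hedgehog gene was compared with the GC slope of the library. Each gene's log2 CPM less its group mean was set against the slope less its group mean over 22 mice, as 9 relations with permutation tests within groups, two-sided. Sufu followed it most closely, with Pearson's r of 0.79 (permutation p = 4e-05, adjusted p = 0.00036) and Spearman's rho of 0.80 (permutation p = 9e-05, adjusted p = 0.00081). Smo had r of 0.74 (permutation p = 0.00016, adjusted p = 0.00072) and rho of 0.75 (permutation p = 0.00042, adjusted p = 0.00189). These relations held without the 2 mice farthest from the median slope, at 0.75 for Sufu and 0.76 for Smo. They were present among the 11 early mice, at 0.75 for Sufu and 0.90 for Smo, and among the 11 late mice, at 0.88 and 0.68. Gli1 had r of 0.54 (permutation p = 0.024, adjusted p = 0.0708) and rho of 0.61 (permutation p = 0.0049, adjusted p = 0.0146), and 0.48 without 2 mice. Gli2, with a GC content close to that of Smo, had r of 0.07 (permutation p = 0.75, adjusted p = 0.754) and rho of 0.13 (permutation p = 0.59, adjusted p = 0.663), with 0.31 among early and -0.13 among late mice and 0.22 without 2 mice. Gas1, with a GC content of 58.4%, had r of -0.21 (permutation p = 0.36, adjusted p = 0.534). A relation with the slope inside the groups was thus not shown for Gli2 or Gas1 by this test. The late difference of Gli2 was smaller after GC and length correction, and that of Gas1 turned from -0.12 to 0.31. Of the 9 relations 2 had an adjusted p under 0.05 for Pearson's r.

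**Figure D3:**
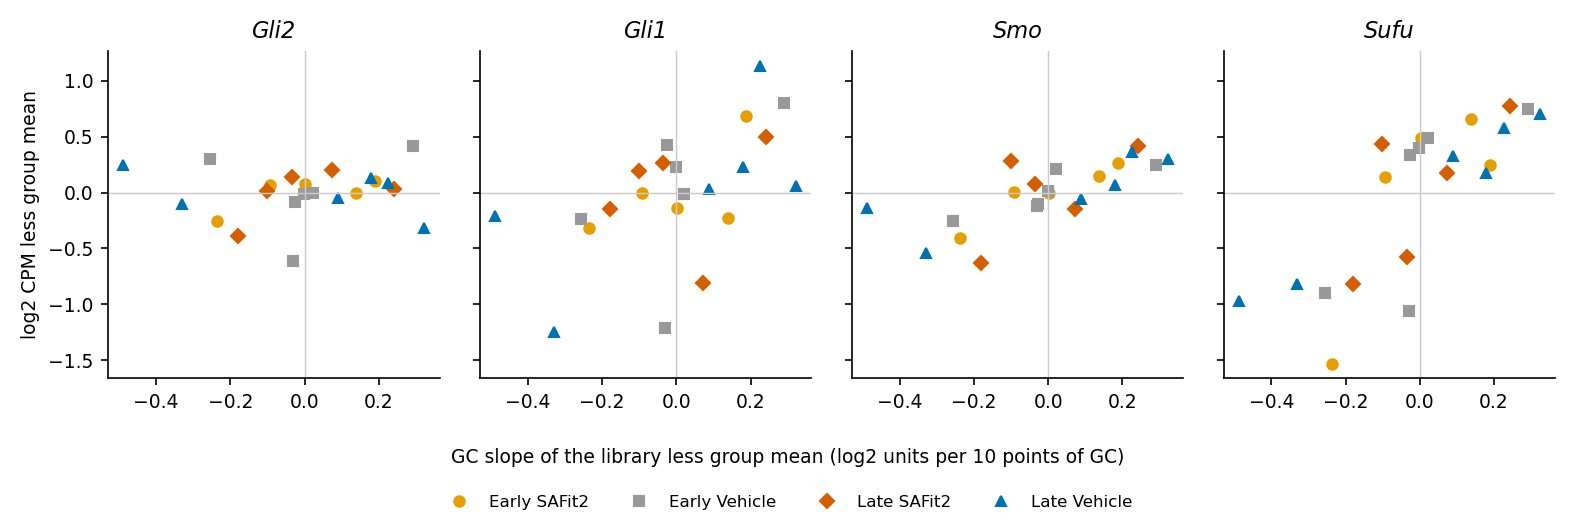
Log2 CPM less the group mean for Gli2, Gli1, Smo and Sufu against the GC slope of the library less its group mean, with 1 point per mouse and a symbol per group. Smo and Sufu rise with the slope, at r of 0.74 and 0.79 over 22 mice, and Gli2 has r of 0.07.

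Among the 36 pairs of the 9 genes, compared in the same way over 22 mice, 2 had an adjusted p under 0.05 for Pearson's r. Smo and Sufu had r of 0.78 (permutation p = 8e-05, adjusted p = 0.00288) and rho of 0.81 (permutation p = 3e-05, adjusted p = 0.00108), with 0.84 among early mice, 0.81 among late mice and 0.77 without the 2 outermost mice. Smo and Gli1 had r of 0.66 (permutation p = 0.0017, adjusted p = 0.0315) and rho of 0.75 (permutation p = 0.00026, adjusted p = 0.00468), with 0.54 among early mice, 0.74 among late mice and 0.65 without the 2 outermost. The genes in these pairs are those with the highest r with the GC slope, whose part in the pairs was not tested. Gli2 moved with none of the other 8 genes by this test. Its highest r was 0.46 with Hhip (permutation p = 0.15, adjusted p = 0.592), with rho of 0.09 (permutation p = 0.73, adjusted p = 0.899), and r fell to -0.02 without the 2 outermost mice.

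Genes that varied most like Gli2 are named by Pearson's r over 22 mice on log2 CPM less the group mean, among 16764 genes, as a description with no test. The 5 most like it were D030047H15Rik with r of 0.81, Invs with 0.80, Zfp488 with 0.79, Ikbkb with 0.77 and Ppef2 with 0.76. Without the 2 mice with outermost Gli2 values r was 0.68, 0.64, 0.66, 0.70 and 0.58, in the same order. Invs encodes inversin, a protein of the primary cilium, and Ikbkb a kinase of the NF-kB pathway. Ppef2 was close to the limit of counting, at a mean log2 CPM of -1.59. The 3 least like Gli2 were Ppp1r15b with r of -0.77, Bmper with -0.77 and Tacr1, the gene of the substance P receptor, with -0.75. The closest of the other 8 hedgehog genes, Hhip and Gli1, came at places 842 and 982. Depth and GC slope differed between the 22 libraries, and their part in these correlations was not tested.

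Other genes of the pathway were taken from 4 lists by role, with 74 genes in all, of which 72 were tested. Foxf1 had at most 18 reads in a mouse and was not tested, and Foxl1 was not in the table. In Late SAFit2 against Late Vehicle mice 14 of the 72 were called with limma (19.4%), beside 12.1% of all genes tested. Of these 11 were lower, beside 6.72% of all genes, and 3 were higher, beside 5.33%. Genes lower in Late SAFit2 mice included Ihh, Boc, Kif7, Iqce, Grk2, Gsk3a, Csnk1e, Csnk1g2, Mgrn1 and Jag2, and those higher were Cul3, Csnk1g3 and Gsk3b. For each of the 14, all 5 Late SAFit2 mice lay on that side of the Late Vehicle mean. The same values gave the calls, so this is a description and no further support. The median late log2 difference over the 72 genes was -0.25, beside -0.05 over all genes, with 51 below 0 and 21 above. After GC and length correction it was -0.05, beside -0.04 over all genes, and with the GC slope of each library in the fit both were 0.00. At an unadjusted p under 0.05 there were 26 (36.1%), beside 34.5% of all genes.

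These late calls changed with the processing and with single mice. After GC and length correction none of the 14 was called with limma, 7 had an unadjusted p under 0.05, all 14 differences were smaller, and adjusted p ran from 0.181 to 0.991. With the GC slope of each library in the fit, without a variance trend, or with the late mice fitted alone, the count was 0, and over all genes these fits called between 0 and 62. The count was 0 without Late SAFit2 mouse 2, 4 or 5 or without Late Vehicle mouse 1, 3, 4 or 5, where at most 8 of all genes were called. It was 7 (9.72%) without Early SAFit2 mouse 4 or Early Vehicle mouse 6, beside 7.09% and 7.61% of all genes. It was 8 (11.1%) without Early Vehicle mouse 2 or Late SAFit2 mouse 3, beside 7.63% and 8.2% of all genes. Without Late Vehicle mouse 6 it was 25 (34.7%), beside 29.7% of all genes. In the main fit the called pathway genes had adjusted p between 0.0324 and 0.0482. The counts over all genes moved in the same direction as those of the lists in these fits. Library quality weights gave 31 calls (43.1%), with 8 higher and 23 lower, beside 38.1% of all genes.

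Of the 14 genes for ligand release and co-receptors, 2 were called in the late comparison (14.3%), both lower, a share near the 12.1% of all genes, and the list's median log2 difference was -0.42. Boc, a co-receptor for hedgehog ligands, had log2 CPM of 3.97, 3.83, 3.75, 3.33 and 3.15 in Late SAFit2 mice and between 3.73 and 4.49 in Late Vehicle mice. Its log2 difference was -0.57 (SE 0.19, adjusted p = 0.0482), and -0.23 after GC and length correction. Ihh, a hedgehog ligand, was at the limit of detection, with 0 to 9 reads in Late SAFit2 mice and 10 to 21 in Late Vehicle mice. In log2 CPM the groups overlapped, with Late SAFit2 mice up to -0.36 and Late Vehicle mice from -0.53. The Ihh log2 difference of -1.73 (SE 0.48, adjusted p = 0.0346) includes 1 of 5 Late SAFit2 mice with 0 reads. Disp2 and Gpc5, the genes of this list with the highest mean, were not called, at -0.34 (SE 0.14, adjusted p = 0.0846) and 0.09 (SE 0.12, adjusted p = 0.617). Disp2 was called without Early Vehicle mouse 5 (adjusted p = 0.0475), Late SAFit2 mouse 1 (adjusted p = 0.0463) or Late Vehicle mouse 6 (adjusted p = 0.0232), with a replicate block and with library quality weights. Disp2 belongs to the family of Dispatched proteins, whose member Disp1 releases the ligand, and Gpc5 is a glypican.

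The list for transduction and Gli processing had 34 genes, of which 8 were called lower and 3 higher in Late SAFit2 mice (32.4% in all), with a median of -0.17. Over all genes 12.1% were called, 6.72% lower and 5.33% higher, and after GC and length correction the count was 0 for the list and for all genes. Kif7, the ciliary kinesin that controls Gli proteins, had log2 CPM of 1.98, 1.58, 1.49, 1.39 and 0.85 in Late SAFit2 mice and between 1.76 and 3.00 in Late Vehicle mice. Kif7 fell, with a log2 difference of -0.99 (SE 0.26, adjusted p = 0.0329), and -0.47 after the correction. Mgrn1, a ubiquitin ligase that acts on Smo, had -0.56 (SE 0.18, adjusted p = 0.0441). Grk2, a kinase of Smo, had -0.50 (SE 0.16, adjusted p = 0.0455), and Iqce, a protein of the cilium base, -0.57 (SE 0.16, adjusted p = 0.0361). Cul3, the scaffold of a ubiquitin ligase that degrades Gli proteins, had values of 7.45 to 7.78 in Late SAFit2 mice and 6.76 to 7.49 in Late Vehicle mice. It was higher by 0.53 (SE 0.12, adjusted p = 0.0324), and by 0.06 after the correction. Prkar1a and Prkacb, subunits of protein kinase A and the most highly expressed of this list, were not called, at 0.13 (adjusted p = 0.356) and 0.20 (adjusted p = 0.215).

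Kinases of the same family were called in opposite directions in this list on the deposited values. Gsk3a, with a GC content of 59.8%, had a log2 difference of -0.44 (SE 0.14, adjusted p = 0.0439), which turned to 0.04 after GC and length correction. Gsk3b, with 46.1%, had 0.35 (SE 0.11, adjusted p = 0.0439) and 0.20 after it. These kinases act in the same step, the marking of Gli proteins for processing. Csnk1g2, with 57.3%, had -0.60 (SE 0.19, adjusted p = 0.0427) and -0.20 after the correction, and Csnk1g3, with 43.2%, had 0.47 (SE 0.12, adjusted p = 0.0324) and 0.18. Csnk1e, a casein kinase with 56.4%, had late groups that did not overlap, at 5.41 to 5.56 in Late SAFit2 and 5.57 to 6.08 in Late Vehicle mice, and a difference of -0.34 (SE 0.10, adjusted p = 0.0415), with 0.00 after the correction. Over the 14 called genes, the 11 lower ones had GC contents of 53.9% to 62.3%, all above the median of 49.7%, and the 3 higher ones 38.5% to 46.1%, all below it. The whole table had the same order, with 96.2% of genes called lower and 1.84% of genes called higher above that median.

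**Figure D4:**
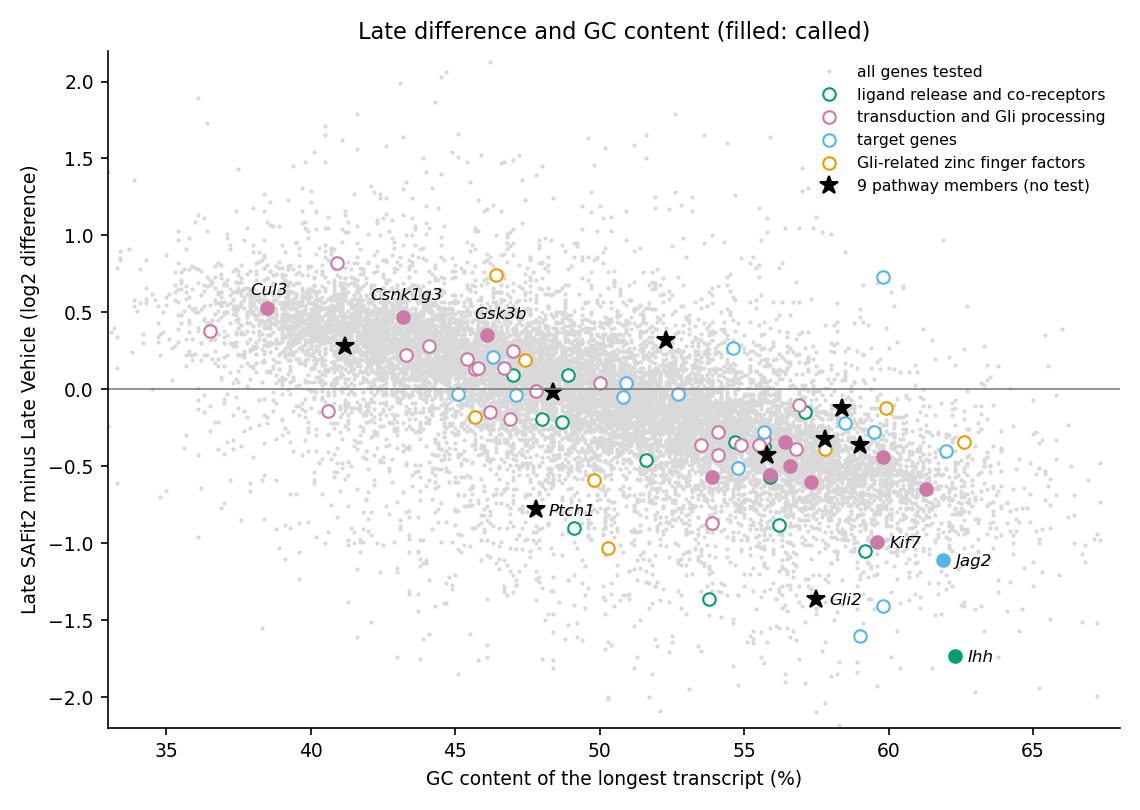
Late log2 difference against GC content for all genes tested (grey), the 72 tested genes of the 4 role lists (circles, filled where called) and the 9 hedgehog genes (stars, no test). The filled circles lie below 0 at a GC content of 53.9% to 62.3% and above 0 at 38.5% to 46.1%, and Gli2 at 57.5% has -1.36.

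**Figure D5:**
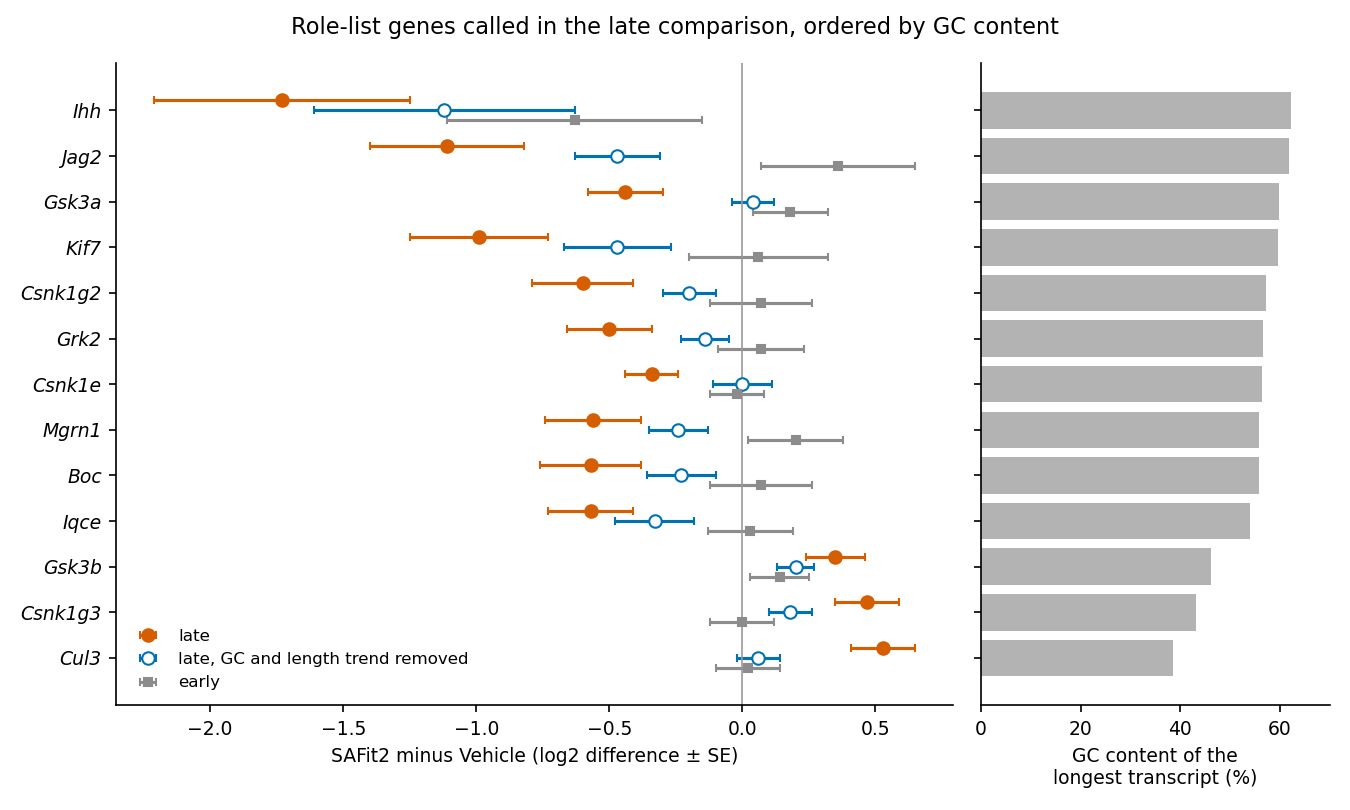
Role-list genes called in the late comparison, 13 of the 14, ordered by GC content, with the late log2 difference (orange), the late difference after GC and length correction (open) and the early difference (grey), each with its standard error, and their GC content as bars. The late differences shown are smaller after the correction, with Kif7 at -0.47 and Gsk3a at 0.04.

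Of the 16 target genes tested 1 was called in the late comparison, lower (6.25%), beside 12.1% of all genes and 6.72% called lower, and the median was -0.13. This was Jag2, a Notch ligand, with log2 CPM of 3.69, 3.06, 3.12, 2.54 and 3.19 in Late SAFit2 mice and between 3.49 and 4.75 in Late Vehicle mice. Jag2 fell, with a log2 difference of -1.11 (SE 0.29, adjusted p = 0.0324), and -0.47 after GC and length correction. The most highly expressed targets, Ccnd1, the cell cycle gene of cyclin D1, and Olig2, a factor of oligodendrocytes, were not called, at 0.04 (adjusted p = 0.813) and -0.22 (adjusted p = 0.236). Olig2 turned to 0.22 after the correction, and was called lower at -0.35 with library quality weights (adjusted p = 0.0362). Of the 8 Gli-related zinc finger factors, 0 were called with limma, 1 had an unadjusted p under 0.05 (12.5%), beside 34.5% of all genes, and the median was -0.26. Zic1 and Zic2, the highest of this list, had -0.18 (adjusted p = 0.448) and -0.12 (adjusted p = 0.701), and Zic2 turned to 0.38 after the correction.

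In the early comparison 0 of the 72 role-list genes were called with limma, with medians of 0.06 for ligand release and co-receptors, 0.07 for transduction, 0.01 for targets and -0.03 for Gli-related factors. At an unadjusted p under 0.05 there was 1 (1.39%), beside 2.48% of all genes. This was Lrp2, an endocytic co-receptor named after its value was seen, at -2.06 (SE 0.74, adjusted p = 1). Between the early and late effects 0 of the 72 were called with limma, beside 0 of 16765 genes (0%), and the lowest adjusted p was 0.12. At an unadjusted p under 0.05 there were 18 (25.0%), beside 24.9% of all genes. The late calls of these genes are therefore not shown to differ from the early comparison. Jag2 had a difference between the effects of 1.46 (SE 0.40) and Kif7 1.05 (SE 0.37). Without Late Vehicle mouse 6, 14 of the 72 were called for this difference (19.4%), beside 15.0% of all genes. With library quality weights 19 were called (26.4%), beside 30.3% of all genes.

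Between the Vehicle groups 3 of the 72 role-list genes were called with limma (4.17%), beside 9.11% of all genes. Gpc5 was higher in Late Vehicle mice by 0.42 (SE 0.12, adjusted p = 0.0258), with values of 6.17 to 6.53 against 5.46 to 6.39. Gsk3a was higher by 0.42 (SE 0.13, adjusted p = 0.0458), with values of 6.33 to 7.0 against 5.94 to 6.59, but this call was lost in 14 of 22 fits without a single mouse and in 5 of 17 other alternatives. Bcl2, a survival gene and a target of Gli factors, was lower with a log2 difference of -0.52 (SE 0.15, adjusted p = 0.0249), with values of 4.52 to 5.56 against 5.22 to 6.05. The Bcl2 call was lost in 3 and the Gpc5 call in 2 of the 22 fits without a single mouse. Of the 17 other alternatives, 2 lost the Bcl2 call and 3 lost the Gpc5 call. The called genes split into 2 higher and 1 lower, which turned to 5 higher with median centring, to 1 lower with quantile normalization and to 2 lower with library sizes counted without Bc1 and mitochondrial RNA. The count was 1 without Early Vehicle mouse 2 or 5 or Late Vehicle mouse 1, 7 without Late Vehicle mouse 6 (9.72%, beside 14.8% of all genes), 10 after GC and length correction (13.9%, beside 15.9%) and 20 with library quality weights (27.8%, beside 30.2%).

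Markers of several cell types are given beside the late values. All 6 ependymal markers had late log2 differences below 0 and 2 were called lower, beside 6.72% of all genes, Foxj1 at -0.77 (SE 0.19, adjusted p = 0.0324) and Rarres2 at -0.86 (SE 0.28, adjusted p = 0.046). Their summed level was 18.6, 23.7 and 46.7 CPM (lowest, median, highest) in Late SAFit2 and 31.5, 50.5 and 64.3 CPM in Late Vehicle mice, with Foxj1 as the most abundant gene at 53.2% of the sum and no marker at 0 in all mice. The median late log2 difference of the 6 markers was -0.68. In the early comparison 0 of the 6 were called with limma, with Foxj1 at 0.02 (SE 0.19) and Rarres2 at -0.35 (SE 0.28). The other 4, whose mean log2 CPM was at most 0.76, had early differences from -4.22 to -1.57 with SE from 0.62 to 0.98. The early sums had medians of 25.4 CPM in SAFit2 and 31.6 CPM in Vehicle mice. After GC and length correction Foxj1 had -0.20 and Rarres2 -0.84. Among the 8 astrocyte markers 1, Fgfr3, was called lower at -0.51 (SE 0.15, adjusted p = 0.0399), and the sums ran from 4980 to 6070 CPM in Late SAFit2 and from 4690 to 5490 CPM in Late Vehicle mice, with Slc1a2 the most abundant at 45.6%. The 8 astrocyte markers split evenly, with 4 above and 4 below 0. Of the 6 endothelial and mural cell markers 5 were below 0, with 1, Cldn5, called lower at -0.53 (SE 0.17, adjusted p = 0.0453). The 5 neuronal markers had 3 above and 2 below 0, with 1, Slc32a1, called lower at -0.55 (SE 0.18, adjusted p = 0.0456). With the GC and length trend removed, Fgfr3 had -0.15, Cldn5 -0.08 and Slc32a1 0.05. Of the 4 Schwann cell markers 3 were below 0, with 0 called. Schwann cell sums ran from 130 to 3960 CPM in Late SAFit2 and from 754 to 1710 CPM in Late Vehicle mice. Meningeal fibroblast markers had 4 above and 4 below 0, with sums of 58.9 to 667 CPM against 171 to 275 CPM. Whether the content of these cell types has a part in the late values of Gli2, Ptch1 or the called genes was not tested.

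Several marker lists also differed between the Vehicle groups. All 8 astrocyte markers were higher in Late Vehicle than in Early Vehicle mice, with 3 called higher and a median log2 difference of 0.41. Their sums, led by Slc1a2, ran from 4690 to 5490 CPM in Late Vehicle and from 3510 to 4640 CPM in Early Vehicle mice, without overlap. All 6 ependymal markers were higher as well, with 0 called and a median of 0.49, and sums of 31.5 to 64.3 CPM against 26.0 to 46.1 CPM. All 8 meningeal fibroblast markers were lower, with 1 called and a median of -0.79, and sums, led by Dcn at 38.2%, of 171 to 275 CPM against 234 to 599 CPM. All 4 red blood cell markers in the table were higher, with 1 called and a median of 0.55, and sums, led by Hba-a2, of 495 to 915 CPM against 413 to 586 CPM. The marker sums thus separated the Vehicle groups for astrocytes and overlapped for the other 3 lists. No marker of these 4 lists in the table was at 0 in all mice. Over all genes 9.11% were called in this comparison, and the part of these cell types in the values of the hedgehog genes and Gpc5 was not tested.

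Skeletal muscle markers were seen in some Late SAFit2 libraries, with 5 of 5 markers above 0 in the late comparison, 1 called higher (Tnnt3), and a summed level of up to 197 CPM against at most 4.8 CPM in Late Vehicle mice. The most abundant muscle gene was Tnnt3, at 34.4% of the sum over all mice, 39.2% in Late SAFit2 mouse 3 and 37.8% in mouse 5. Without the mice that carried them, Late SAFit2 mice 3 and 5, a choice made after seeing the data, Gli2 had a late log2 difference of -1.43. In that fit the count of role-list genes called was 0, beside 1 of 16765 genes.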

How the data were processed

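The authors deposited 1 table of log2 CPM for 22 libraries, 1 per mouse. Per their methods, 75 bp paired-end reads from strand-specific poly(A) libraries were trimmed, aligned to mm10, counted per gene with featureCounts, scaled by trimmed mean of M-values and filtered on low counts. The processing notes name Trimmomatic and HISAT2, with no versions. Reads were recovered from the deposited log2 values, and 100.0% were whole within 0.02.

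The 9 genes and the role and marker lists were chosen with earlier results of these data known. Differences came from limma 3.58.1 (R 4.3.3) with a variance trend on the deposited log2 CPM, with 4 group means over 22 mice, for genes at log2 CPM of at least -1 in 5 libraries. P-values were adjusted by Benjamini-Hochberg over all 16765 genes, two-sided, and a gene was called at a fold change of 1.2 or more with an adjusted p under 0.05. The calculation was tested on simulated data. GC content came from GENCODE M21 for 16208 of the genes tested, and its trend was removed per library by loess with a span of 0.5, with transcript length. Correlations used 100000 permutations within groups (Python 3.11.15). Of the role lists the text names called genes, up to 20 per comparison by lowest p, and the 2 genes of each list with the highest mean. There were 13 alternatives besides leaving out each mouse, and 4 more chosen after seeing the data. Values of some listed genes are not reported here.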

Additional observations from a re-analysis of the deposited data

Results flagged for a closer look

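In 36 sets of values, the 9 hedgehog genes in each of the 4 groups, 2 held a mouse far from the others of its group by Dixon's test of the gap over the range, and chance alone marks about 1 in 20 such sets. Sufu in Early SAFit2 mouse 1 was at log2 CPM 0.14, from 15 reads, with the nearest mouse at 1.81. Its gap made up 0.762 of the group's range. Hhip in Early Vehicle mouse 4 was at log2 CPM 3.26, from 126 reads, with the nearest mouse at 4.32, a gap of 0.663 of the range.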

How the results depend on the processing

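The count of called pathway genes in the early comparison was 0 under every alternative, and the late difference of Gli2 stayed below 0 in all of them. Gli2 in the late comparison was -1.36, and -0.87 with an offset of 2 CPM, -0.94 after GC and length correction and -0.87 with that correction and a replicate block. Late calls in the role lists numbered 14. They were 0 with no variance trend, with the late mice alone and after GC and length correction with or without a replicate block. They were also 0 with the GC slope as a covariate and without the mice with muscle transcripts. These fits called between 0 and 62 of all genes. Voom gave 3 calls (4.17%, beside 5.23% of all genes), quantile normalization 8 (11.1%, beside 7.34%) and library quality weights 31 (43.1%, beside 38.1%). Calls for the difference between early and late effects went from 0 to 19 with quality weights (26.4%, beside 30.3% of all genes). Calls between the Vehicle groups, over the role lists and the 9 genes without Gli2, numbered 3, beside 9.11% of all genes. They were 21 with quality weights (beside 30.2%), 5 with median centring (beside 12.0%), 1 with quantile normalization (beside 6.94%) and 1 with those mice alone (beside 7.18%). They were 10 after GC and length correction (beside 15.9%), 10 with a replicate block added (beside 15.4%), and 7 with the GC slope as a covariate (beside 13.7%). Leaving out single mice gave 0 to 25 late calls, 0 to 14 calls for the difference and 1 to 7 between the Vehicle groups. Over all genes these fits gave 1 to 4971, 0 to 2513 and 944 to 2482 calls, in the same order. The cause was not tested.

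Signs of some tested genes turned. After GC and length correction these were Gli2 early (-0.11) and, in the late comparison, Gsk3a (0.04), Prkar1a (-0.05), Olig2 (0.22) and Zic2 (0.38), and Csnk1e was at 0.00. With that correction and a replicate block they were Gli2 early (-0.04) and, late, Csnk1e (0.02), Gsk3a (0.07), Prkar1a (-0.07), Olig2 (0.25) and Zic2 (0.46). With the GC slope as a covariate they were Sufu between the Vehicle groups (-0.18) and, late, Csnk1g2 (0.07), Grk2 (0.04), Gpc5 (-0.15), Prkacb (-0.04) and Olig2 (0.07). With library quality weights they were Gli3 early (-0.07), Hhip early (-0.03) and Gas1 between the Vehicle groups (-0.19). Leaving out single mice gave -0.08 to 0.08 for Smo early, -0.11 to 0.09 for Gli2 early, -0.08 to 0.52 for Sufu early, -0.11 to 0.23 for Hhip early, -0.01 to 0.40 for Sufu between the Vehicle groups, -0.20 to 0.12 for Zic2 late and -0.01 to 0.09 for Ccnd1 late. Of 1637 alternative values of tested single genes, 1334 kept their direction and side of the threshold, 260 lost a call, 8 gained one and 35 turned. Late values of the 9 genes, with no test, turned too. After GC and length correction alone or with a replicate block these were Smo (0.10 and 0.15), Gli1 (0.13 and 0.16), Gas1 (0.31 and 0.43) and Hhip (-0.08 and -0.03). With the GC slope as a covariate they were Smo (0.14), Gli1 (0.34) and Sufu (0.80), and Hhip was at 0.00. Gli3, at -0.02, lay between -0.17 and 0.31 over all alternatives. Alternatives chosen after seeing the data were the GC slope covariate, the fit without Late SAFit2 mice 3 and 5, library sizes without Bc1 and mitochondrial RNA, and the genes with a GC value.

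Read counts of 15 to 136 limit the precision of Gli2. Mice with the same number were not treated as pairs in the main fit. Their correlations ran from -0.236 to 0.317, with 2 of 10 over 0.1, which shows no clear pairing but cannot exclude one. The study's methods balanced the treatment groups within cages, and cage was not part of any fit.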
